A study of Mus musculus with 4 samples.

Results

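Kallikreins, the trypsin-like and chymotrypsin-like serine proteases encoded by Klk genes, were examined together with 2 families of protease inhibitors, the clade B serpins (Serpinb) and the Kazal-type inhibitors (Spink), in skin of mice with and without Ldb2. Members were all genes of the deposited table whose symbol starts with Klk, Serpinb or Spink followed by a digit. There were 42 of them among 17721 genes, 13 Klk, 22 Serpinb and 7 Spink. RNA of dispase-treated back skin was sequenced from C57BL/6 mice at postnatal day 63, with 2 wild type (WT) and 2 LDB2-/- libraries. Which layer of the skin was kept after dispase is not given in the sources used here. The genotypes share strain, tissue and age, and how the Ldb2 allele was made, the sex of the mice and how many mice each library holds are not given in the sources used here. If the libraries are not from separate animals, the p-values measure a spread that may be technical. Ldb2, an adaptor of LIM domain transcription factors, had 0 and 8 counts in WT and 0 and 0 in LDB2-/-, too few to check the genotype labels.

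In skin, kallikreins are secreted by keratinocytes of the upper epidermis as inactive precursors, activate one another, and cut the proteins that hold cells of the cornified layer together, so that the surface is shed. Spink5 encodes LEKTI, a multi-domain inhibitor of these kallikreins, and its loss in people causes Netherton syndrome, with excessive shedding and a poor barrier. Clade B serpins are mostly intracellular proteins that trap serine or cysteine proteases by a suicide mechanism, although some, such as maspin (Serpinb5), have no known protease target of that kind.

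Total counts per library ran from 54095522 to 68436842. Keratinocyte genes, which define the epidermis of the labelled skin, were abundant in all 4 libraries: summed over 6 basal markers (Krt5, Krt14, Krt15, Col17a1, Itga6 and Itgb4), 25831 and 23348 scaled CPM were found in WT and 10750 and 10949 in LDB2-/-. Scaled CPM give a count relative to the TMM-scaled total of the tested genes of the library, per 1000000. They are used for comparisons between libraries, and values are given in the order WT 1, WT 2, LDB2-/- 1, LDB2-/- 2. FPKM, which is per transcript length, is used to compare genes with each other. Fold changes are of LDB2-/- over WT from edgeR's quasi-likelihood test, with Benjamini-Hochberg adjustment across the 12400 tested genes. A gene was called at an adjusted p under 0.05. By this rule all 6 basal markers were lower in LDB2-/-, with a median log2 fold change of -1.85.

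Most tested inhibitors fell in LDB2-/-, and kallikreins were called in both directions. Of 16 tested Serpinb genes 13 fell, 1 rose and 2 were not called, and of 3 tested Spink genes 2 fell and 1 was not called. Of 10 tested Klk genes 5 fell, 4 rose and 1 was not called. Over all genes tested, 57.2% were called, 28.4% higher and 28.8% lower in LDB2-/-. Of the 29 tested members, 69.0% were called lower and 17.2% higher. Scaled CPM did not overlap between the genotypes for 27 of them, 20 lower and 7 higher, and for 82.5% of all genes tested. The median log2 fold change was -1.48 for Serpinb, -2.25 for Spink and -0.18 for Klk, against -0.01 for all genes tested. Scaling by the library total alone moved the median of all genes to -0.33 and left the counts of called members in each class as they were.

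The test was limited to genes with an FPKM of at least 1 in 2 or more libraries, and 13 members were too low for it. Some members passed only through the genotype in which they were high, namely Klk14 and Klk15 through LDB2-/-, and Serpinb7, Serpinb9, Serpinb10, Serpinb1c and Spink4 through WT. The direction of those 7 was partly fixed by that filter. Of the 22 members above the minimum in both genotypes, 15 fell, 3 rose and 4 were not called. Among them, 5 of 8 Klk genes fell and 2 rose. Of 12 Serpinb genes 9 fell and 1 rose, and of 2 Spink genes 1 fell and 0 rose. The share of all genes called under this stricter minimum was not computed. With no filter, all 42 members were tested, and 19 fell and 6 rose, where 21.1% of all genes were called lower and 19.7% higher.

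**Figure D1:**
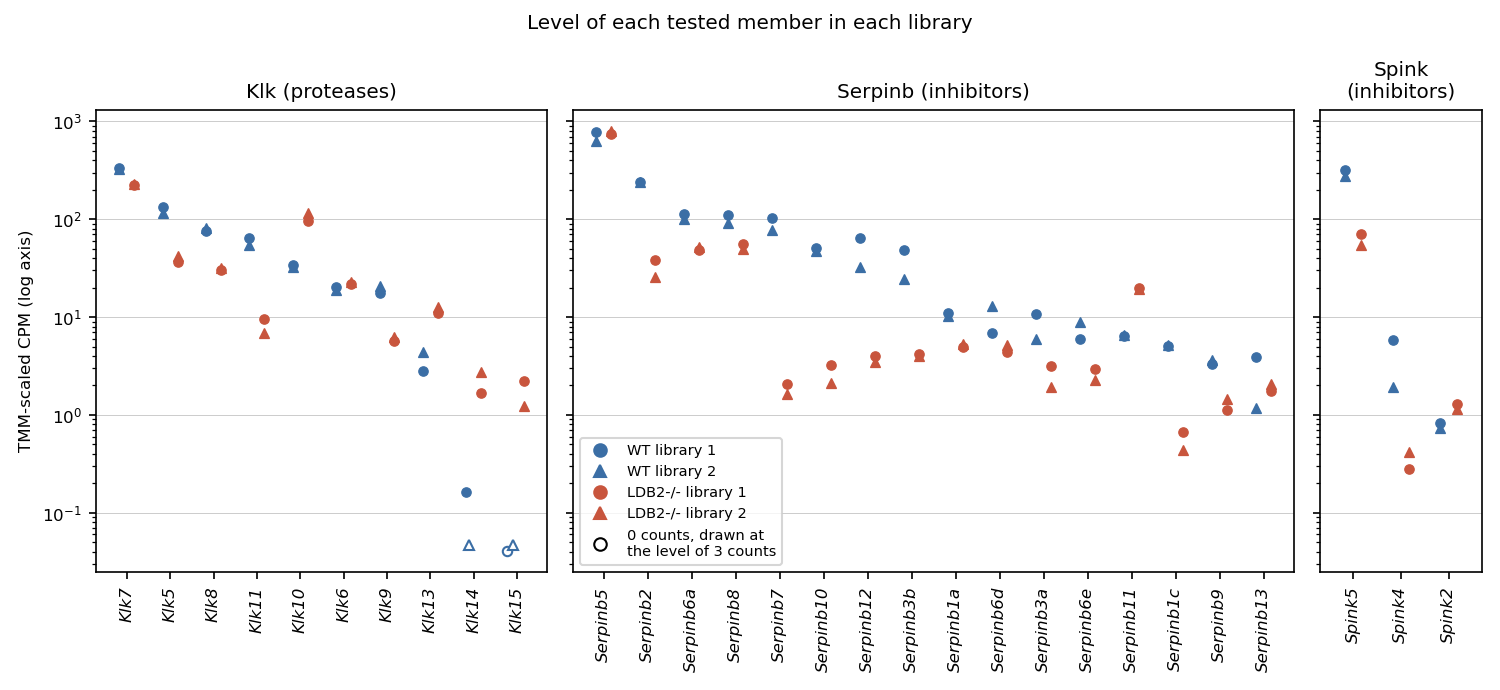
TMM-scaled CPM (log axis) of the 29 tested members in each library, blue for WT and red for LDB2-/-, circles for library 1 and triangles for library 2, genes ordered by their WT mean within each class. Most inhibitors sit lower in LDB2-/-, while Klk10, Klk13, Klk14, Klk15 and Serpinb11 sit higher. Open symbols stand for 0 counts, drawn at the level of 3 counts.

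All 13 Klk genes lie in 1 cluster on chromosome 7 (43680880 to 44229622, mm10), on the plus strand. The Serpinb genes lie in 2 clusters, 12 on chromosome 1 (106861175 to 107608978) and 10 on chromosome 13 (32842092 to 34002794). In map order, Klk14 and Klk13 rose, Klk11 fell, Klk10 rose, Klk9, Klk8 and Klk7 fell, Klk6 was not called, Klk5 fell and Klk15 rose. Thus 4 of 9 neighbouring pairs of tested genes were called in opposite directions. The pair of Klk5 and Klk15 rests on Klk15, which passed the filter only through LDB2-/-. The share of such pairs over all tested genes was not computed, so this count only describes the cluster. In the chromosome 13 cluster all 6 tested Serpinb genes fell, with a median log2 fold change of -1.27. In the chromosome 1 cluster 7 of 10 fell, with a median of -2.31, and only Serpinb11 rose.

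**Figure D2:**
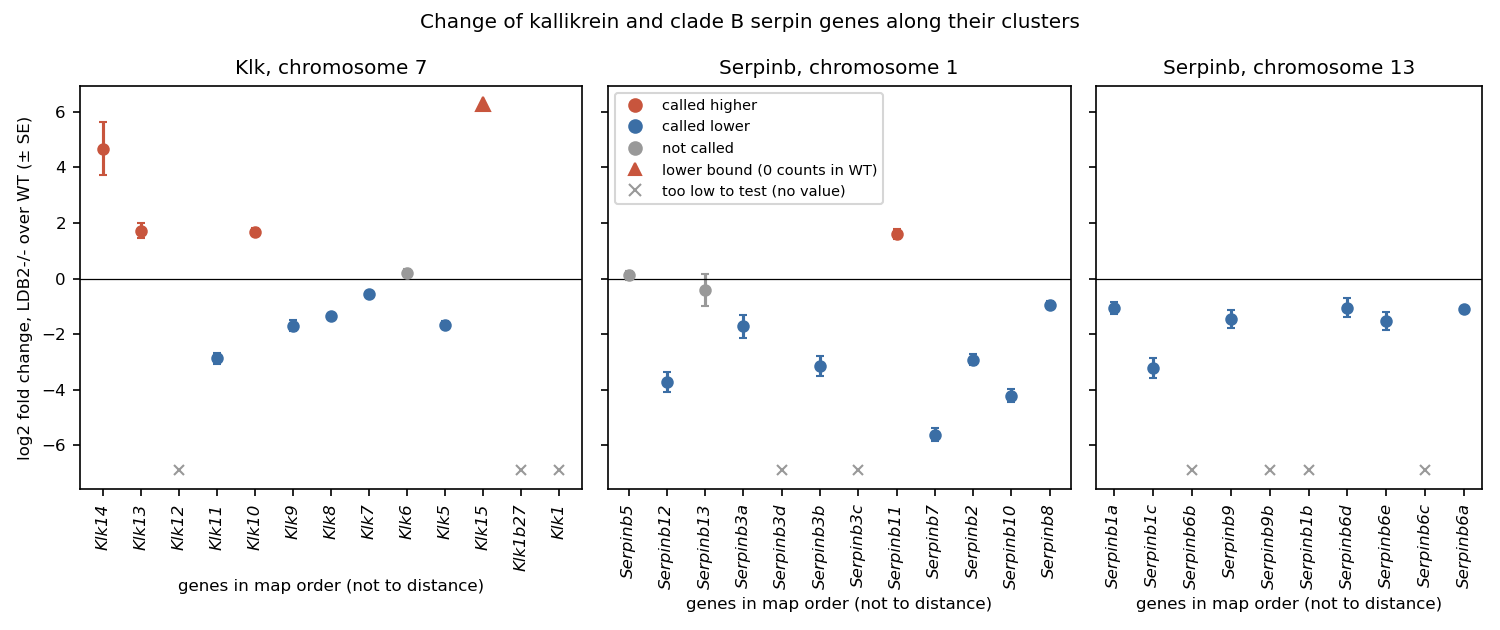
Log2 fold change of LDB2-/- over WT (± SE) for the Klk genes of chromosome 7 and the Serpinb genes of chromosomes 1 and 13, in map order but not to distance. Red is called higher, blue called lower and grey not called, the triangle is the lower bound of 6.27 for Klk15, and crosses mark genes too low to test. Klk10 stands out as a higher gene between lower neighbours, and Serpinb11 as the only gene called higher on chromosome 1.

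Since adjacent kallikrein genes moved in opposite directions, the upstream sequences of Klk10 (rose) and its neighbour Klk11 (fell) are shown. From the chromosome 1 cluster, Serpinb7 and Serpinb10, which fell, and Serpinb5, which was not called, are added. Each is the 250 bases before the first RefSeq start listed for the gene (GRCm38.p6), given 5′ to 3′ on the plus strand, on which these genes lie. Annotated exons or gene spans reach into the windows of Klk10, Klk11, Serpinb5 and Serpinb10 by at most 19 bases. Capitals mark the letters of 3 motifs searched on both strands and chosen with the results known. They were TAATTA, a core bound by LIM homeodomain factors, TGANTCA, a loose AP-1 type pattern where N is any base, and CTTTGA, a TCF/LEF type site. The TGANTCA match was TGAGTCA in the Serpinb7 window and TGAATCA in those of Serpinb10 and Serpinb5.
Klk10: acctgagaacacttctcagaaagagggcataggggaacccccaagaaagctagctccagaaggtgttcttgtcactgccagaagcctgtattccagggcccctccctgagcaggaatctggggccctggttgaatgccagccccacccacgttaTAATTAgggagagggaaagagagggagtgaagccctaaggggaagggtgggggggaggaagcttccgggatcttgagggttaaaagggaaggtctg
Klk11: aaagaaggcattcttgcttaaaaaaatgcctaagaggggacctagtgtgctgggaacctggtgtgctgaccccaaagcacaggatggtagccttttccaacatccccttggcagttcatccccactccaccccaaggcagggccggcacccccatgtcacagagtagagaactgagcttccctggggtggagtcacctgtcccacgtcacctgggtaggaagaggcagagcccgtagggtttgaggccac
Serpinb7: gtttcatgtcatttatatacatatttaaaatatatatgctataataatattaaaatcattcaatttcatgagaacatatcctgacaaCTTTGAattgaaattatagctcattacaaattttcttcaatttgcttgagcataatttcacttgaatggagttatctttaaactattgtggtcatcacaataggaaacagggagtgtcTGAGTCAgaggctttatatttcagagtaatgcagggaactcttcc
Serpinb10: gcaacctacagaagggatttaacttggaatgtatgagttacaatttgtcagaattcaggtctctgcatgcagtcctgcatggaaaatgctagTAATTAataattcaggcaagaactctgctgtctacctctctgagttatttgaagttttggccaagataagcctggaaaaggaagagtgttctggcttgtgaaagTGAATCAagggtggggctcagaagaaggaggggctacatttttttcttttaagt
Serpinb5: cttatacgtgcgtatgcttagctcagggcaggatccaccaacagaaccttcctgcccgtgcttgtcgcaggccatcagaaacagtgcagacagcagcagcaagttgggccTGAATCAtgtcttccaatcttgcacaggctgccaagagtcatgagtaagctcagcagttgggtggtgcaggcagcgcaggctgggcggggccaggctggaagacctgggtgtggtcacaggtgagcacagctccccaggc
These windows are chr7:43780804-43781053 for Klk10, chr7:43774367-43774616 for Klk11, chr1:107422439-107422688 for Serpinb7, chr1:107528753-107529002 for Serpinb10 and chr1:106860925-106861174 for Serpinb5. The letters TAATTA were found upstream of Klk10 and Serpinb10 and of no other member with a sequence (34 of the 42 genes, 43 starts), and 4.84% of all 32851 starts held them. The letters TGANTCA were found upstream of 7 of 11 Serpinb genes of the chromosome 1 cluster (8 of 13 starts), of 0 of 13 Klk genes and of 0 of 9 Serpinb genes of the chromosome 13 cluster, against 6.75% of all starts. The 7 were Serpinb2, Serpinb5, Serpinb7, Serpinb8, Serpinb10, Serpinb11 and Serpinb12, of which 5 fell, Serpinb11 rose and Serpinb5 was not called. CTTTGA was found upstream of Serpinb7 and Serpinb9b, and in 13.8% of all starts. Such matches describe the letters of these windows only, the starts used in these libraries were not measured, and for some genes, Klk9 and Serpinb11 among them, the window searched lies within the annotated gene or an exon of it.

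Among the kallikreins that act on the cornified layer, Klk5 and Klk7 fell, and Klk14 rose from near 0. Klk7 (gene ID 23993, chromosome 7, 43811294 to 43816387), a chymotrypsin-like enzyme that cleaves corneodesmosin, was at 335.9 and 329.0 scaled CPM in WT and 223.3 and 228.7 in LDB2-/-. It was the most abundant kallikrein per length in both genotypes, at 189.5 ± 0.061 FPKM (SD, n = 2) in WT and 103.2 ± 2.46 in LDB2-/-. Its fall was the smallest of the called members (log2 fold change -0.56, SE 0.11, edgeR adjusted p = 0.00707). The genotypes did not overlap, but the call was lost without LDB2-/- replicate 1 (adjusted p = 0.0701) or replicate 2 (0.0627).

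Klk5 (gene ID 68668, chromosome 7, 43834157 to 43851181), a trypsin-like enzyme that can activate itself and other kallikreins, was at 134.0 and 116.7 in WT and 36.4 and 42.3 in LDB2-/-. Both LDB2-/- libraries lay far below both WT libraries, a log2 fold change of -1.67 (SE 0.13, edgeR adjusted p = 3.87e-04). Klk14 (gene ID 317653, chromosome 7, 43680880 to 43695536), another trypsin-like enzyme of the shedding cascade, had 12 and 0 counts in WT and 84 and 163 in LDB2-/-. It was called higher (log2 fold change 4.68, SE 0.96, adjusted p = 0.00891). The size rests on the 12 counts of WT library 1: it was 3.76 without WT replicate 2 and 10.01, a value set by 0 counts, without replicate 1. At 1.51 FPKM in LDB2-/-, Klk14 stayed far below Klk5 (27.8 FPKM) and Klk7.

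Klk8, Klk9 and Klk11 fell with Klk5. Klk11 (gene ID 56538, chromosome 7, 43774617 to 43779263), a trypsin-like kallikrein, fell most, from 64.5 and 55.0 in WT to 9.57 and 6.91 in LDB2-/- (log2 fold change -2.86, SE 0.20, edgeR adjusted p = 2.72e-04). Klk8 (chromosome 7, 43797532 to 43803826), which encodes neuropsin, an enzyme of both epidermis and brain, was at 75.2, 81.7, 30.3 and 31.6. Klk9 (chromosome 7, 43791625 to 43796758) was at 17.7, 20.9, 5.74 and 6.20. Their log2 fold changes were -1.34 (SE 0.11) and -1.69 (SE 0.20), with adjusted p = 4.31e-04 and 0.00119. In all 3 genes every LDB2-/- library was below every WT library.

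Klk10 (gene ID 69540, chromosome 7, 43781054 to 43785410) moved the other way. It was at 33.9 and 32.2 in WT and 96.0 and 115.9 in LDB2-/- (log2 fold change 1.68, SE 0.13, edgeR adjusted p = 3.62e-04). Klk13 (gene ID 626834, chromosome 7, 43712567 to 43727864) rose by a like amount from a lower level, from 2.82 and 4.35 to 11.0 and 12.8 (1.73, SE 0.28, adjusted p = 0.00401). Klk15 (gene ID 317652, chromosome 7, 43929405 to 43940035) had 0 counts in both WT libraries, which allows up to 0.0405 and 0.0464 scaled CPM each, and 109 and 73 counts in LDB2-/-. Set against 3 counts over the WT group, the log2 fold change was at least 6.27 (adjusted p = 0.00176). Klk6, a trypsin-like kallikrein also made in the nervous system, was not called: it was at 20.2, 18.8, 21.9 and 22.8 (log2 fold change 0.20, SE 0.15, adjusted p = 0.289), and its sign turned with the library total alone (-0.12) and with limma on log2(FPKM + 1) (-0.10).

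The order of the kallikreins therefore differed between the genotypes. In WT it ran, by mean FPKM, Klk7 (189.5), Klk5 (110.8), Klk8 (86.4), Klk11 (50.5), Klk10 (26.8), Klk6 (15.8), Klk9 (14.4) and Klk13 (3.8), and only Klk6 and Klk9 overlapped. In LDB2-/- it ran Klk7 (103.2), Klk10 (68.6), Klk5 (27.8), Klk8 (26.4), Klk6 (14.6), Klk13 (10.1), Klk11 (5.59) and Klk9 (3.55), and only Klk5 and Klk8 overlapped. Klk10 made up 5.41% and 5.33% of the summed Klk FPKM in WT and 24.5% and 27.5% in LDB2-/-, whereas Klk5 went from 23.4% and 21.1% to 10.2% and 11.0%. The share of Klk7 was 37.8% and 38.3% in WT and 40.1% and 38.2% in LDB2-/-. Klk1, Klk1b27 and Klk12 had at most 17 counts in any library. Exons of Klk8 and Klk14 overlap an opposite-strand gene, 2310002F09Rik, and those of Klk15 overlap Gm44756, whose reads cannot be told apart from theirs because use of strand in counting is not given in the sources used here.

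**Figure D3:**
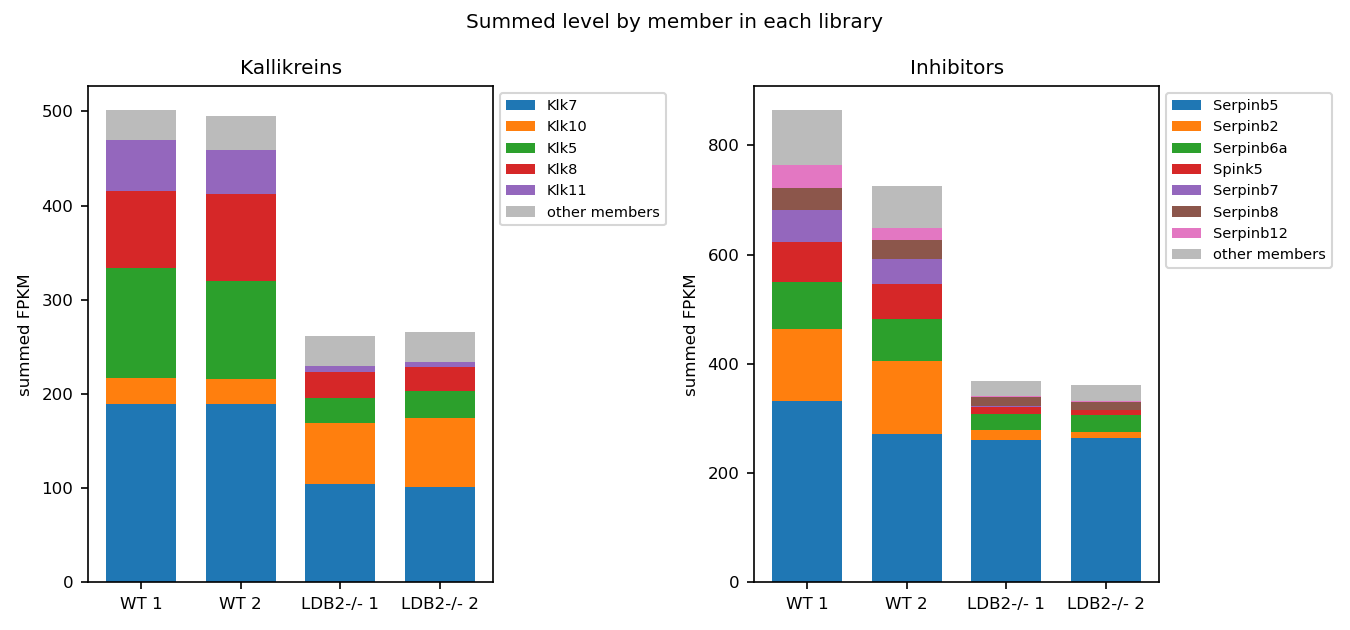
Summed FPKM of the kallikreins and of the inhibitors (Serpinb and Spink) in each library, bars from 0 divided by member. The Klk10 part is larger in LDB2-/-, and Serpinb5 makes up most of the inhibitor bar there while the other inhibitors shrink.

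The clade B serpins of the chromosome 1 cluster held the 3 largest falls among the members. Serpinb7 (gene ID 116872, chromosome 1, 107422689 to 107452689), whose loss in people causes a palmoplantar keratosis, was at 102.7 and 77.3 scaled CPM in WT and 2.05 and 1.65 in LDB2-/- (log2 fold change -5.61, SE 0.23, edgeR adjusted p = 8.65e-05). That is 48.7-fold lower in LDB2-/-. Serpinb10 (gene ID 241197, chromosome 1, 107528994 to 107560742), known as bomapin and best known from blood-forming cells, was at 50.5, 47.8, 3.20 and 2.13 (-4.21, SE 0.24, adjusted p = 1.56e-04). Serpinb12 (gene ID 71869, chromosome 1, 106934449 to 106957080) was at 64.6 and 32.8 in WT and 3.97 and 3.48 in LDB2-/- (-3.71, SE 0.36, adjusted p = 6.73e-04). Its WT libraries differed more than its LDB2-/- libraries, yet both lay above them.

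Serpinb2 (gene ID 18788, chromosome 1, 107500892 to 107525600), plasminogen activator inhibitor 2, was the second most abundant serpin of the family in WT. It was at 242.4 and 240.1 in WT and 38.4 and 25.9 in LDB2-/- (log2 fold change -2.91, SE 0.21, edgeR adjusted p = 2.72e-04). In the annotation, Serpinb2 and Serpinb10 share exon sequence on the same strand. They have 10.4% and 6.97% of their 50-base words in common with other genes, so reads from shared sequence could belong to either. Serpinb2 had 17978, 15517, 1908 and 1540 counts and Serpinb10 3745, 3088, 159 and 127. How much of the Serpinb10 level and of its fall came from Serpinb2 reads was not tested.

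Serpinb3a and Serpinb3b, mouse relatives of the squamous cell carcinoma antigens, inhibitors of serine and cysteine proteases, also fell. Serpinb3b was at 49.0 and 24.4 in WT and 4.23 and 4.0 in LDB2-/- (log2 fold change -3.16, SE 0.36, edgeR adjusted p = 0.00112), and at -2.57 without WT replicate 1. Serpinb3a was at 10.8, 5.97, 3.18 and 1.93 (-1.72, SE 0.41, adjusted p = 0.0144), and its call was lost without WT replicate 1 (adjusted p = 0.0503). About 15.0% and 14.7% of the 50-base words of Serpinb3a and Serpinb3b occur in other transcripts, so their counts are less certain. Serpinb8, whose loss in people causes peeling skin, was at 110.6, 92.3, 55.4 and 49.1 (-0.96, SE 0.14, adjusted p = 0.00243).

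Members of the same cluster did not all fall. Serpinb5 (gene ID 20724, chromosome 1, 106861175 to 106883348), maspin, was the most abundant inhibitor in every library, at 784.3 and 627.1 in WT and 740.0 and 792.8 in LDB2-/-, and the genotypes overlapped. It was not called (log2 fold change 0.12, SE 0.16, edgeR adjusted p = 0.560), and its sign turned with the library total alone (-0.20), with limma on log2(FPKM + 1) (-0.19) and without WT replicate 2 (-0.03). Serpinb11 (gene ID 66957, chromosome 1, 107362314 to 107380475) rose, from 6.37 and 6.50 to 19.8 and 19.4 (1.61, SE 0.18, adjusted p = 9.95e-04), with replicates close together in both genotypes. Serpinb13, an inhibitor of cathepsins L and K known as hurpin, was at 3.88 and 1.18 in WT and 1.75 and 2.05 in LDB2-/-. The WT libraries lay on either side of the LDB2-/- ones, and the sign turned without WT replicate 1 (0.69).

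In the chromosome 13 cluster Serpinb1c fell most. It was at 5.06, 5.21, 0.665 and 0.437 (log2 fold change -3.22, SE 0.35, edgeR adjusted p = 9.54e-04). Serpinb6a (gene ID 20719, chromosome 13, 33917918 to 34002794), an intracellular inhibitor of serine proteases and the most abundant gene of this cluster, was at 113.8 and 101.6 in WT and 48.4 and 52.2 in LDB2-/- (-1.10, SE 0.12, adjusted p = 8.81e-04). Serpinb1a, an inhibitor of neutrophil proteases, was at 11.1, 10.2, 4.98 and 5.34 (-1.05, SE 0.21, adjusted p = 0.00761). Each of these genes had both LDB2-/- libraries below both WT libraries. Exons of Serpinb6a overlap opposite-strand genes (Nqo2, Ripk1 and 1110046J04Rik).

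Its other tested genes were less firm. Serpinb9, the granzyme B inhibitor, was at 3.29, 3.68, 1.11 and 1.46 (log2 fold change -1.44, SE 0.32, edgeR adjusted p = 0.0115), a call lost without WT replicate 2 (adjusted p = 0.0654). Serpinb6e was at 5.99, 8.96, 2.96 and 2.25 (-1.52, SE 0.31, adjusted p = 0.00906). Serpinb6d was at 6.85, 12.9, 4.39 and 5.21 (-1.04, SE 0.35, adjusted p = 0.0459), and its call was lost without WT replicate 2 (-0.51, adjusted p = 0.263), without LDB2-/- replicate 1 (0.0872) and with no filter (0.0543). Serpinb6b (122, 120, 24 and 42 counts) and Serpinb6c (78, 98, 7 and 30 counts) were too low to test and lay lower in LDB2-/- without overlap. Serpinb1b, Serpinb3c, Serpinb3d and Serpinb9b had at most 25 counts in any library.

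By FPKM, 1 gene made up most of the serpin RNA of this family in LDB2-/-. Serpinb5 made up 42.8% and 41.4% of the summed Serpinb FPKM in WT and 74.1% and 76.5% in LDB2-/-. Serpinb2 made up 17.1% and 20.5% in WT and 4.98% and 3.24% in LDB2-/-. In WT the order after Serpinb5 (301.3 FPKM) was Serpinb2 (133.6), Serpinb6a (81.4), Serpinb7 (52.2) and Serpinb8 (37.0), with no overlap between them. In LDB2-/- it was Serpinb6a (30.3), Serpinb8 (15.0), Serpinb2 (14.4) and Serpinb11 (10.1) after Serpinb5 (262.2), and Serpinb8 and Serpinb2 overlapped. Serpinb7 was at 0.864 FPKM in LDB2-/-.

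Of the Kazal-type inhibitors, Spink5 carried nearly all the counts. Spink5 (gene ID 72432, chromosome 18, 43959545 to 44022487), which encodes LEKTI, was at 320.3 and 275.7 scaled CPM in WT and 70.8 and 54.3 in LDB2-/- (log2 fold change -2.25, SE 0.17, edgeR adjusted p = 3.08e-04). Both LDB2-/- libraries were far below both WT libraries, at 11.6 ± 2.62 FPKM against 68.5 ± 6.26. Spink4, best known from goblet cells of the gut, was at 5.80 and 1.92 in WT and 0.282 and 0.420 in LDB2-/- (-3.44, SE 0.65, adjusted p = 0.00662). Its fall was -2.44 without WT replicate 1 and -4.03 without WT replicate 2. Spink2, known as an acrosin inhibitor of the testis, was at 0.836, 0.743, 1.29 and 1.14 and was not called (0.62, SE 0.36, adjusted p = 0.190).

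The remaining Spink genes were too low to test. Spink8 had 0 and 0 counts in WT and 23 and 111 in LDB2-/-, and was called higher when no filter was used (edgeR adjusted p = 0.0154). Set against 3 counts over the WT group, its log2 fold change was at least 5.83. Spink6, another inhibitor of kallikreins in human skin, had 0, 7, 16 and 15 counts. Spink12 had 66 counts in LDB2-/- library 2 and 0, 8 and 0 in the others, and Spink10 had 2 counts in all.

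Proteases and inhibitors were then compared as totals, with no test, since a sum over chosen members gets none. Summed Klk levels were 684.7 and 659.0 scaled CPM in WT and 438.4 and 471.1 in LDB2-/-, a ratio of 0.677. Summed Serpinb levels were 1574 and 1301 in WT and 935.2 and 971.0 in LDB2-/-, a ratio of 0.663. Summed Spink levels were 326.9 and 278.6 in WT and 73.2 and 59.1 in LDB2-/-, a ratio of 0.218. The 3 sums did not overlap between the genotypes. Scaled by the library total alone or taken in FPKM, all 3 sums were lower still in LDB2-/- relative to WT.

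The ratio of all kallikrein to all inhibitor FPKM differed little, from 0.580 and 0.682 in WT to 0.708 and 0.737 in LDB2-/-. Without Serpinb5, the ratio was 0.940 and 1.09 in WT and 2.41 and 2.74 in LDB2-/-. Set against LEKTI alone, Klk7 was 2.60 and 2.96 times Spink5 in WT and 7.81 and 10.4 times in LDB2-/-, since Spink5 fell more than Klk7. Klk5 was 1.61 and 1.63 times Spink5 in WT and 1.98 and 3.0 times in LDB2-/-. These are ratios of RNA levels per length, and they do not depend on the scaling between libraries.

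**Figure D4:**
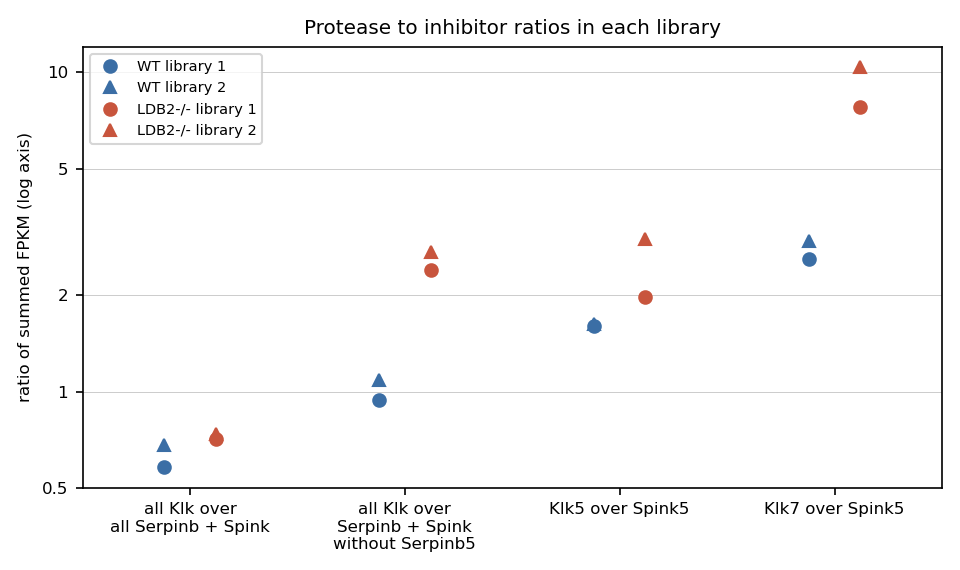
Ratio of summed FPKM (log axis) in each library, blue for WT and red for LDB2-/-, for all kallikreins over all inhibitors, the same without Serpinb5, Klk5 over Spink5 and Klk7 over Spink5. The genotypes are close for the ratio over all inhibitors and far apart without Serpinb5 and for Klk7 over Spink5.

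Other genes of the same protease network are described by lists of names, chosen with earlier results of these data known. Counts for these lists and for the marker lists below stand beside 28.4% of all tested genes called higher and 28.8% lower. A count near those shares says nothing particular about its list. Of 15 tested membrane-bound and other serine proteases 6 rose and 3 fell, with a median log2 fold change of 0.01. St14, which encodes matriptase, a membrane protease that can start kallikrein activation, rose from 138.7 ± 2.18 to 481.7 ± 38.7 scaled CPM (SD, n = 2; 1.8, SE 0.12, edgeR adjusted p = 2.39e-04). Tmprss11e rose by 3.92, the plasminogen activator Plat by 2.22 and Prss8, prostasin, by 0.91, while log2 fold changes were -2.25 for both Tmprss4 and Hpn. Of 8 tested Kunitz and WAP inhibitors 4 rose and 3 fell, with a median of 0.52. Spint1, the cognate inhibitor of matriptase, rose with it by 1.8 (from 82.4 ± 7.04 to 287.2 ± 26.9), Wfdc18 rose by 3.93, Wfdc2 rose by 3.28, and Wfdc21 and Wfdc5 had log2 fold changes of -5.33 and -3.02.

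Of 14 tested serpins of other clades, 7 fell and 6 rose, with a median of -0.66. The 7 include Serpina3b, Serpina3g, Serpina3h, Serpina3i and Serpina3j, and Serpina3h went from 196.5 ± 14.8 to 20.8 ± 2.0 scaled CPM (log2 fold change -3.24, edgeR adjusted p = 8.65e-05). Serpina1e rose by 8.11 and Serpina9 by 3.67 on the log2 scale. Serpina11 also rose (edgeR adjusted p = 7.28e-04), from 0 and 3 counts to 200 and 275, a scaled ratio of 201.3 with an exact 95% counting interval of 68.5 to 979.8. Close copies among Serpina genes can share reads. Of 8 tested cystatins, inhibitors of cysteine proteases, 4 fell and 0 rose at the threshold, among them BC100530 (-1.82), Stfa1 (-1.81), Stfa3 (-1.42) and Cst3 (-0.69).

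Cathepsins and related proteases of the cysteine, aspartic or serine (Ctsa) type were mostly higher, with 10 of 14 tested genes called higher, 1 lower and a median of 0.97. Ctse rose by 8.01, from 0.760 ± 0.675 to 192.3 ± 5.09 scaled CPM, Ctsc, which activates granule serine proteases, by 3.06, and Ctsz by 2.50, while Ctso had a log2 fold change of -2.01 (edgeR adjusted p = 0.0110). All 3 tested protease-activated receptors fell. F2rl1, the receptor PAR2 that trypsin-like kallikreins can cleave, was at 104.9 ± 3.62 in WT and 76.0 ± 4.59 in LDB2-/- (-0.46, SE 0.11, adjusted p = 0.0136), and F2r and F2rl2 had log2 fold changes of -2.75 and -2.50.

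Of 8 tested substrates and structural proteins of the cornified layer 5 fell and 1 rose. The corneodesmosome genes split: Cdsn (0.35, edgeR adjusted p = 0.147) and Dsc1 (0.29, adjusted p = 0.202) were not called, while Dsg1a, Dsg1b and Dsg1c fell (-1.33, -0.68 and -1.58). Of the cornified layer genes, Flg2 and Lor fell most (-5.24 and -3.27), and Ivl rose by 0.71. Of 4 tested leukocyte serine proteases 3 rose, the mast cell genes Cma1, Mcpt4 and Tpsb2, each with a mean under 3 scaled CPM in both genotypes, while Elane and Tpsab1 had 0 counts in at least 1 genotype.

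Markers of the layers and appendages of skin differed between the genotypes, in both directions. Summed levels went from 27850 and 24028 scaled CPM to 3934 and 3475 for 5 suprabasal markers, all 5 lower, and from 3267 and 2888 to 683.1 and 694.0 for the granular and cornified layer, where 3 of 5 fell, Ivl rose and Casp14 was not called. All 7 inner root sheath markers rose, from 164.5 and 632.6 to 110758 and 120372, and all 9 hair shaft markers, from 28.0 and 273.8 to 19847 and 22466. All 7 sebaceous markers fell, from 4430 and 6120 to 1067 and 939.6. All 3 tested T cell markers fell, with sums over the 4 in the table going from 218.1 and 238.2 to 73.5 and 85.7. All 5 upper follicle markers fell, from 3319 and 3554 to 1762 and 1685, and 3 of 5 outer root sheath and companion layer markers rose, from 2222 and 1818 to 5138 and 5310, with Krt6b and Krt16 not called. No marker of these lists was at 0 in both libraries of a genotype.

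Markers of other cells and of deeper tissue differed too. All 5 melanocyte markers rose, from sums of 26.3 and 46.6 scaled CPM to 1194 and 1362. The 4 tested fibroblast markers rose, with sums over 5 genes going from 77.4 and 43.8 to 180.6 and 237.5. The 3 tested skeletal muscle markers (Acta1, Tnnt3 and Ckm) rose, with sums over 4 genes going from 0.836 and 0.542 to 37.4 and 30.3. These muscle and dermal RNAs were low beside the keratinocyte markers in both genotypes, and whether the same layers of skin were kept in every library was not tested. The 4 tested mast cell markers rose, from sums of 6.57 and 8.48 to 40.3 and 40.1. Of 5 Langerhans cell and macrophage markers 3 fell and Cd68 rose, with sums of 948.6 and 1001 in WT and 595.4 and 734.8 in LDB2-/-. Both tested neutrophil markers, S100a8 and S100a9, which keratinocytes can also make, rose, with sums over 5 genes going from 16 and 9.0 to 42.2 and 45.2, while Ly6g, Elane and Mpo were each at 0 in both libraries of 1 genotype. In bulk skin, fewer cells of a type and less RNA per cell cannot be told apart, and the part of these shifts in the members' changes was not tested.

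In the authors' deposited table, 27 of the 40 members with an adjusted p passed 0.05, 21 lower and 6 higher, where 47.6% of all its genes passed. All 25 members called here passed there in the same direction, and Serpinb6b and Spink8, too low to test here, passed there too.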

How the data were processed

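Read counts per gene, whole numbers with no normalization, were deposited by the authors for 17721 genes, per the file headers. FPKM, log2 values normalized between libraries by a method the headers do not name, and the authors' own comparison were deposited beside them, per the file headers. The authors' comparison gives a signed fold change, a score that is negative where LDB2-/- is lower, per the file headers. The deposited p-value is the authors' own, adjusted by Benjamini-Hochberg, per the file headers. HISAT2 2.1.0, StringTie 1.3.4d, bcl2fastq 1.8.4 and the build mm10 are listed, per the submitters' processing notes, with settings not given in the sources used here. The deposited log2 values were not used.

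Counts were fitted over all 4 libraries with edgeR 4.0.16 (TMM, quasi-likelihood test, two-sided, Benjamini-Hochberg) in R 4.3.3, for genes with an FPKM of at least 1 in at least 2 libraries. The SE is implied by the F statistic. The test was tested on simulated data with 200 changed genes among 12400. It recovered 1 of 67 changes of 1.5-fold, 14 of 67 of 2-fold and 60 of 66 of 4-fold. There were also 13 false calls among the unchanged genes. Far fewer genes were changed there than were called in the data (57.2%), so these rates may not hold for the data. A member that was not called may still have changed, and the simulation missed some changes of 4-fold too. Limits from 3 counts cover counting error only. DESeq2 1.42.0 and limma 3.58.1 on log2(FPKM + 1) were alternatives. Gene positions and upstream sequences came from RefSeq (GRCm38.p6, the assembly of mm10), exon overlaps and 50-base words from GENCODE M21. All 42 members matched by gene ID, and 34 had an upstream sequence.

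Members and gene lists were chosen with earlier results of these data known. Values in every library are given for members called with an absolute log2 fold change of at least 1, the most abundant of each class, and those with counts in 1 genotype; up to 4 genes are named per list by size of change, and others were chosen after their values were seen.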

Additional observations from a re-analysis of the deposited data

How the results depend on the processing

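Of the 25 called members, 21 kept direction and call in all 12 alternatives that gave them a value. Over the 29 tested members, 9 results lost their call, all named in the text or here, and 6 changed sign, all of members that were not called. Klk6 turned to -0.12 with the library total alone and to -0.10 with limma on log2(FPKM + 1), Serpinb5 to -0.20 and -0.19 there. With each library left out in turn, Serpinb5 ran from -0.03 to 0.29 and Serpinb13 from -1.03 to 0.69. Genes called higher over all tested fell from 3521 to 2248 with the library total alone and 2314 with limma on FPKM, with 5096 and 5282 lower against 3576. With a mean FPKM of at least 1, Klk14 and Klk15 were not tested, and 2 of the 8 tested Klk genes were called higher. With no filter 1 Spink gene was called higher (Spink8). The log2 ratio of summed levels was -0.56 for Klk, -0.59 for Serpinb and -2.19 for Spink. It was -0.88, -0.91 and -2.51 with the library total alone, and -0.92 and -1.04 for Klk and Serpinb in FPKM. Without the gene with the most counts in the class it was -1.97 for Serpinb and -0.42 for Spink. With Klk7, Serpinb5 and Spink5 all left out, the log2 change of the Klk to inhibitor ratio went from 0.20 to 1.38. With each library left out in turn, log2 ratios over all members ran from -0.62 to -0.51 for Klk and -0.72 to -0.45 for Serpinb. They ran from -2.36 to -2.05 for Spink and from 0.10 to 0.31 for the Klk to inhibitor ratio. The counts of all genes then ran from 2707 to 3264 higher and 2894 to 3461 lower, with 11 to 13 Serpinb and 4 to 5 Klk genes lower.

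Replicate numbers pair the libraries by number only. Same-numbered libraries deviated in opposite directions (correlation -0.164 across genes). With the replicate block, 2916 genes were called higher and 3176 lower, and counts of called members in each class did not change. With crossed pairs, added after seeing the data, 3678 and 3591 genes were called, with 11 Serpinb genes lower in place of 13 (Serpinb3a at adjusted p = 0.0538 and Serpinb6d at adjusted p = 0.0964 were lost).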

Other observations

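Between the 2 WT libraries, 8 of the 29 tested members differed by at least 1.5-fold in scaled CPM (27.6%), where 8.57% of all tested genes did. Serpinb13 was 3.30-fold, Spink4 3.02-fold, Serpinb3b 2.01-fold, Serpinb12 1.97-fold and Serpinb3a 1.81-fold higher in WT library 1. Klk13 and Serpinb6d were lower there, at 0.648 and 0.531 of library 2, and Klk14 had counts in library 1 only. The inner root sheath markers were at 164.5 in WT library 1 and 632.6 in WT library 2. Between the LDB2-/- libraries 5 members differed that far (17.2%, against 9.78% of all tested genes).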
